A study of Arabidopsis thaliana with 6 samples.

Results

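The 10 type-A cytokinin response regulators of Arabidopsis thaliana, ARR3 to ARR9 and ARR15 to ARR17, were followed on 6 Affymetrix ATH1 arrays of young leaves. They were taken as a gene family, a choice made with earlier results of these data known. All 10 were measured, among 21428 probe sets in all, with no filter on weak signals. The probe sets, each named after its gene locus, were AT1G59940_at (ARR3), AT1G10470_at (ARR4), AT3G48100_at (ARR5), AT5G62920_at (ARR6), AT1G19050_at (ARR7), AT2G41310_at (ARR8), AT3G57040_at (ARR9), AT1G74890_at (ARR15), AT2G40670_at (ARR16) and AT3G56380_at (ARR17). The RefSeq gene table lists AT2G41310 as RR3 and gives ARR8 as its synonym, so it is a different gene from ARR3.

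The AN3-GR group held 3 arrays of plants that carry AN3 fused to the glucocorticoid receptor domain, and the wild type group held 3 arrays of plants without the fusion. All plants were of the accession Columbia-0 and were grown in vitro for 8 days in 16 h of light and 8 h of darkness. Plants of both groups then spent 8 h on 5 µM dexamethasone, a steroid that releases proteins fused to this receptor domain into activity, and leaves 1 and 2 were dissected. AN3, also called GIF1, is a transcriptional coactivator that promotes cell proliferation in young leaves as a partner of growth-regulating factors and of chromatin remodellers of the SWI/SNF type. The promoter of the fusion, the number of transgenic lines and the number of plants per array are not given in the sources used here. AN3-GR plants without dexamethasone were not analysed here, so the presence of the fusion and its activation cannot be told apart.

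Cytokinin is sensed by histidine kinase receptors of the AHK family, and the signal passes as a phosphate group through AHP proteins to response regulators. Type-B regulators bind DNA and switch on target genes, among them the type-A regulators. Type-A regulators have a receiver domain but no DNA-binding domain, and they dampen the pathway that induces them. Their transcripts are therefore widely used as a readout of cytokinin signalling, and in leaves cytokinin is known for prolonging cell proliferation.

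All 10 type-A regulators had lower mean levels in AN3-GR leaves than in wild type leaves, with log2 changes between -0.79 for ARR5 and -0.05 for ARR17 and a median of -0.31. Over all probe sets 54.2% had a negative change and the median was -0.02. By class of mean level, as given below, 73.1% were negative in the weakest class, with ARR3 and ARR17. The share was 60.2% in class 2, with ARR5, ARR6 and ARR8, 40.2% in class 3 and 43.3% in the strongest. ARR8 and ARR17, at -0.05 each, were less negative than the medians of their classes (-0.06 in class 2 and -0.07 in the weakest). In limma without a block 0 of the 10 passed the threshold of an adjusted p under 0.05, where 0.229% of all probe sets passed as lower in AN3-GR. At an unadjusted p under 0.05, 5 of the 10 were lower (ARR4, ARR5, ARR6, ARR7 and ARR16), against 7.86% of all probe sets. With the replicate number as a block, 3 of the 10 fell, namely ARR4, ARR5 and ARR6, against 3.03% of all probe sets.

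Mean values over the 10 members, on the log2 scale, were 5.86, 5.89 and 5.91 on AN3-GR replicates 1, 2 and 3, against 6.15, 6.22 and 6.35 on wild type replicates 1, 2 and 3. Each AN3-GR array thus lay below each wild type array in this summary. Of the single members, 4 had all AN3-GR arrays below all wild type arrays (ARR4, ARR5, ARR6 and ARR16), against 9.4% of all probe sets. The remaining 6 overlapped between the genotypes.

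**Figure D1:**
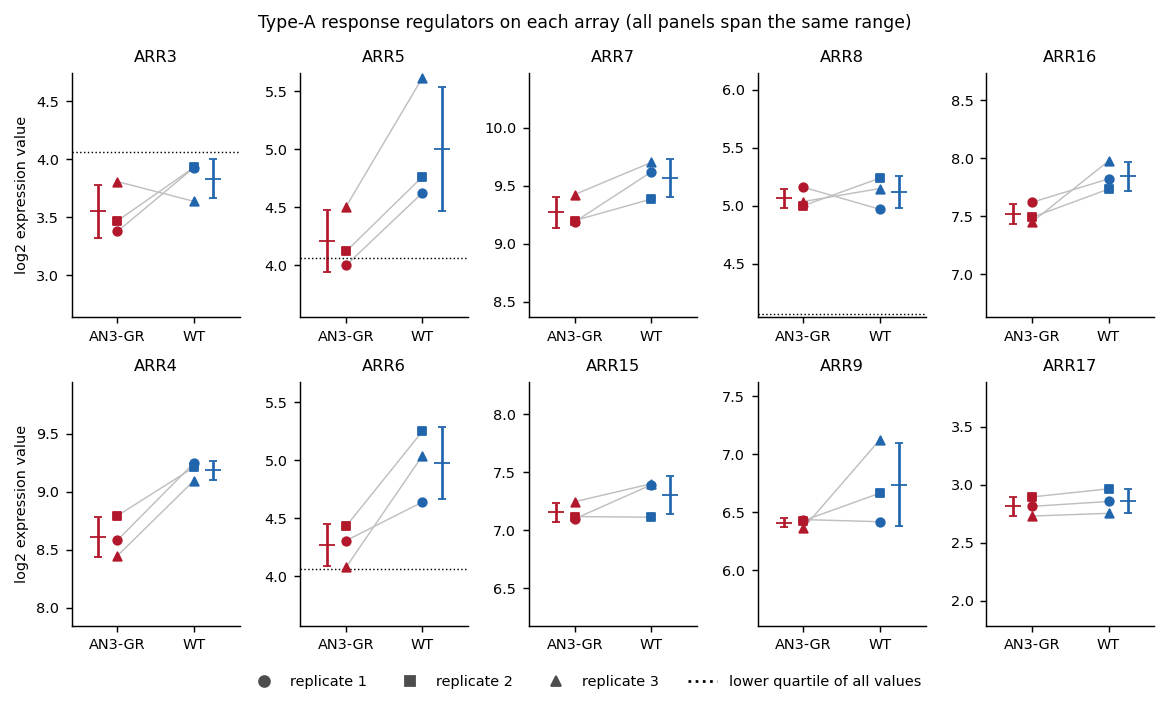
Log2 expression value (y axis) of each type-A regulator on the 3 AN3-GR arrays (red, left) and the 3 wild type arrays (blue, right); grey lines join arrays of the same replicate number, bars show mean and SD, and the dotted line is the lower quartile of all values, 4.06. ARR4, ARR5, ARR6 and ARR16 show no overlap between the genotypes, while ARR8 and ARR17 differ by -0.05.

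ARR3 and ARR4 form one of the 5 close pairs of the family, and ARR4 is known for binding phytochrome B, the red-light receptor. ARR4 had log2 values of 8.58, 8.79 and 8.45 in AN3-GR leaves, against 9.25, 9.21 and 9.09 in wild type leaves. The groups did not overlap, and the lowest wild type array stood above the highest AN3-GR array. The group means were 8.61 ± 0.17 for AN3-GR and 9.18 ± 0.08 for wild type (SD, n = 3 each), which puts the AN3-GR level at 67.1% of the wild type level. The log2 change of -0.58 (SE 0.11, 95% interval -0.83 to -0.32) had an adjusted p of 0.0523 in limma, just above the threshold, and an adjusted p of 0.0244 with the replicate block. ARR4 ranked 234 among all probe sets by p-value, the first of the 10 members.

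ARR3 had log2 values of 3.38, 3.47 and 3.81 in AN3-GR leaves, against 3.93, 3.93 and 3.64 in wild type leaves. AN3-GR replicate 3 stood above wild type replicate 3, so the groups overlapped, and all 6 values lay under the lower quartile of all values, 4.06. The change of -0.28 (SE 0.14) did not pass (limma adjusted p = 0.323, and 0.277 with the replicate block). RMA compresses differences between signals this weak, so the size of the ARR3 change is uncertain.

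ARR5 and ARR6 had the most negative changes of the family. Both are early cytokinin-induced genes, and the ARR5 promoter is a common reporter of cytokinin response. ARR5 had log2 values of 4.00, 4.12 and 4.51 in AN3-GR leaves, against 4.62, 4.76 and 5.62 in wild type leaves. The groups did not overlap, and replicate 3 was the highest array in both genotypes. The change of -0.79 (SE 0.24, 95% interval -1.35 to -0.24) put AN3-GR at 57.7% of the wild type level, with an adjusted p of 0.147 in limma without the block. With the block the SE was 0.12 and the adjusted p 0.0239. Without wild type replicate 3, its highest array, the change was -0.49 (limma adjusted p between 0.0986 and 0.476 over the fits that left out 1 array).

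ARR6 had log2 values of 4.31, 4.43 and 4.08 in AN3-GR leaves, against 4.64, 5.25 and 5.04 in wild type leaves. Again no wild type array reached down to the AN3-GR arrays. The change of -0.70 (SE 0.16, 95% interval -1.07 to -0.34), or 61.4% of the wild type level, had an adjusted p of 0.0771 in limma and 0.0330 with the replicate block, a call that ended when the values were quantile-normalized before that fit (adjusted p = 0.0646). In AN3-GR leaves the means of this pair, 4.21 for ARR5 and 4.27 for ARR6, lay near the lower quartile of 4.06, so the sizes of their folds are uncertain as well.

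ARR7 and ARR15 are the pair known from the shoot meristem, where WUSCHEL represses them. ARR7 had log2 values of 9.19, 9.20 and 9.42 in AN3-GR leaves, against 9.62, 9.38 and 9.70 in wild type leaves. AN3-GR replicate 3 lay just above wild type replicate 2, and the other AN3-GR arrays lay below all wild type arrays. The change of -0.30 (SE 0.12, 95% interval -0.56 to -0.03) had an unadjusted p of 0.0311 and did not pass after adjustment in limma (adjusted p = 0.229, and 0.0865 with the replicate block).

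ARR15 had log2 values of 7.10, 7.12 and 7.24 in AN3-GR leaves, against 7.39, 7.11 and 7.40 in wild type leaves. Wild type replicate 2 lay among the AN3-GR arrays. Its change of -0.15 (SE 0.11, 95% interval -0.39 to 0.10) did not pass (limma adjusted p = 0.511, and 0.340 with the block). It was -0.24 without wild type replicate 2 and -0.0975 without wild type replicate 3.

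ARR8 and ARR9 are type-A regulators whose transcripts respond weakly to cytokinin compared with ARR5 or ARR15. ARR8 had log2 values of 5.16, 5.00 and 5.03 in AN3-GR leaves, against 4.97, 5.24 and 5.15 in wild type leaves. The groups overlapped fully, and the change was -0.05 (SE 0.10, 95% interval -0.29 to 0.18; limma adjusted p = 0.822). ARR8 was also the member whose sign turned most readily, to 0.01 after quantile normalization of the deposited values or without wild type replicate 2.

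ARR9 had log2 values of 6.44, 6.43 and 6.36 in AN3-GR leaves, against 6.42, 6.67 and 7.13 in wild type leaves. The AN3-GR arrays were nearly equal (SD 0.04), while the wild type arrays spread widely (SD 0.36), and wild type replicate 1 lay among the AN3-GR values. The change of -0.33 (SE 0.16) did not pass (limma adjusted p = 0.328). Without wild type replicate 3 it was -0.13 (adjusted p between 0.176 and 0.614 over the fits that left out 1 array).

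ARR16 and ARR17 are the remaining pair, and ARR16 is known to be expressed in the stomatal lineage of the leaf epidermis. ARR16 had log2 values of 7.62, 7.49 and 7.45 in AN3-GR leaves, against 7.82, 7.73 and 7.98 in wild type leaves. The groups did not overlap, with AN3-GR replicate 1 closest to the wild type arrays. The change of -0.32 (SE 0.10, 95% interval -0.55 to -0.09), or 79.9% of the wild type level, had an adjusted p of 0.152 in limma and 0.0900 with the block, and so did not pass in either fit.

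ARR17 had log2 values of 2.81, 2.89 and 2.73 in AN3-GR leaves, against 2.85, 2.96 and 2.75 in wild type leaves. All 6 values lay far under the lower quartile of all values, so the array gave no usable signal for ARR17. Its change of -0.05 (SE 0.10; limma adjusted p = 0.843) says little about the gene.

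Within the close pairs, the partners' changes were set against each other on the same arrays, as values only, since an exact permutation test of 3 arrays against 3 cannot give a p below 0.1. ARR7 minus ARR15 gave a difference in log2 change of -0.15, with -0.14, -0.19 and -0.12 in replicates 1, 2 and 3. ARR16 minus ARR17 gave -0.28, with -0.16, -0.17 and -0.50 in the same replicates, but ARR17 gave no usable signal, so this value says little about a difference between the partners. ARR8 minus ARR9 gave 0.27, with 0.17, 0.00057 and 0.65, so its size lay mostly in replicate 3. Each of these pairs had 1 sign throughout. The difference between partners did not overlap between the genotypes for ARR7 and ARR15 or for ARR8 and ARR9, and overlapped for ARR16 and ARR17. No share over other gene pairs was set beside this, so the separation carries little weight. ARR3 minus ARR4 (0.30 over all arrays) and ARR5 minus ARR6 (-0.09) differed in sign between replicates.

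Arrays of the same replicate number were also set side by side, since the numbers were taken to pair the arrays by the check given with the processing. Of the 30 differences between an AN3-GR array and the wild type array of the same number, 26 were negative. The median difference over the members was -0.31 in replicate 1, -0.24 in replicate 2 and -0.40 in replicate 3, while the median of all probe sets was -0.01, -0.03 and 0.02 in the same pairs. In all 3 pairs 6 members were lower in AN3-GR (ARR4, ARR5, ARR6, ARR7, ARR16 and ARR17), against 23.6% of all probe sets. Of these, ARR17 gave no usable signal. The positive differences were those of ARR3 in replicate 3 (0.17), ARR8 in replicate 1 (0.19), ARR9 in replicate 1 (0.02) and ARR15 in replicate 2 (0.01).

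**Figure D2:**
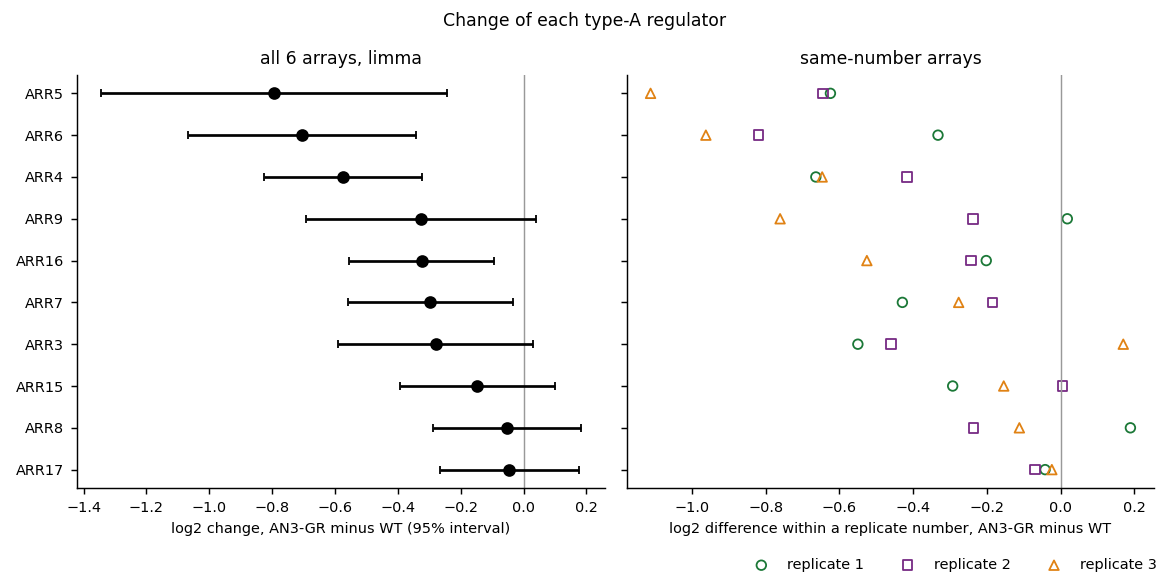
Left, log2 change of each type-A regulator with its 95% interval from limma over all 6 arrays; right, the log2 difference between the AN3-GR and the wild type array of each replicate number, with one symbol per replicate. The intervals of 5 members (ARR4, ARR5, ARR6, ARR7 and ARR16) lie below 0, and 26 of the 30 differences on the right are negative. Over all probe sets 51.9%, 54.7% and 45.3% of the differences are negative in replicates 1, 2 and 3.

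The standard error was smaller with the replicate block for 9 of the 10 members. For ARR5 replicate 3 was high in both genotypes, with a difference of -1.11 in that pair against -0.62 and -0.64 in replicates 1 and 2. For ARR6 the difference was -0.33 in replicate 1, -0.82 in replicate 2 and -0.96 in replicate 3, and for ARR4 it was -0.66, -0.42 and -0.65. The calls of ARR4, ARR5 and ARR6 ended without both arrays of replicate 2, where 0 of the 10 passed with the block, while 4 passed without both arrays of replicate 1 and 4 without both arrays of replicate 3. Over all probe sets 6 passed without replicate 2, against 1187 and 1456 without replicates 1 and 3.

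On group means, weak probe sets as a whole were shifted towards lower values in AN3-GR. The lower quartile of the array was 3.99 to 4.05 on the AN3-GR arrays, against 4.21, 4.13 and 3.99 on wild type replicates 1, 2 and 3. Wild type replicates 1 and 2 thus stood above the AN3-GR arrays, and replicate 3 did not. All probe sets were split by mean level into 4 classes of 5357. In the weakest class, where ARR3 and ARR17 lie, 73.1% of the changes were negative with a median of -0.07. In class 2, with ARR5, ARR6 and ARR8, 60.2% were negative with a median of -0.06. In class 3, with ARR9, ARR15 and ARR16, 40.2% were negative (median 0.05), and in the strongest, with ARR4 and ARR7, 43.3% (median 0.04). The change of ARR4, -0.58, and those of ARR5 and ARR6 lay below the 5th percentile of their classes (-0.36 in the strongest class and -0.40 in class 2). ARR3 at -0.28 lay just below that of the weakest class, -0.27, so that 4 members in all stood there. The part of the weak-signal shift in the changes of ARR3, ARR5, ARR6, ARR8 and ARR17 was not tested.

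**Figure D3:**
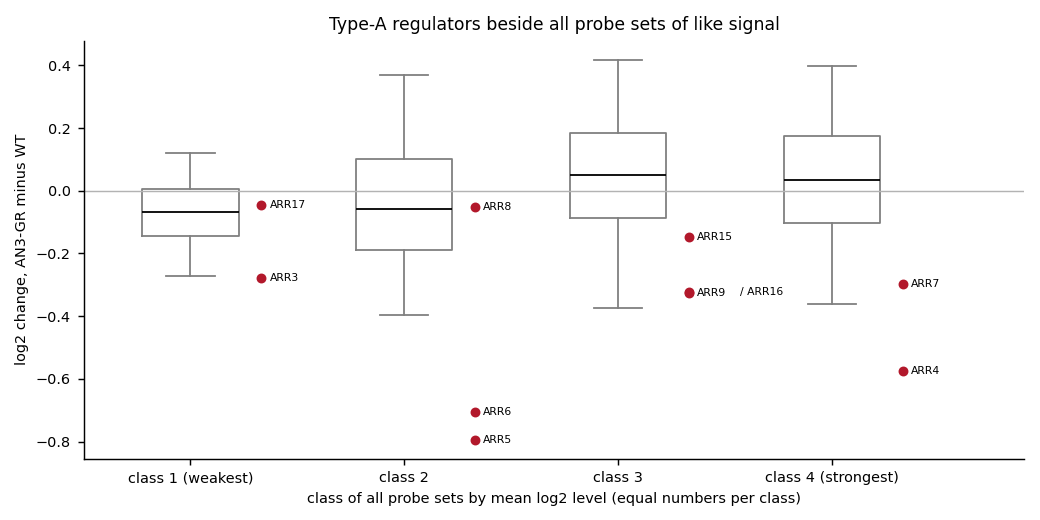
Log2 change of all probe sets (boxes: quartiles and median; whiskers: 5th to 95th percentile) in 4 equal classes of mean log2 level (x axis), with the type-A regulators in red beside the box of their own class. ARR4, ARR5 and ARR6 lie well below the lower whisker of their class, ARR3 lies at it, and ARR8 and ARR17 lie inside the box.

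Upstream of the type-A regulators, 0 of the measured receptors, phosphotransfer proteins and type-B regulators passed. Of the 3 cytokinin receptors 0 passed in either fit, and their changes ran from -0.28 for AHK3 (SE 0.15) to -0.003 for AHK4 (SE 0.12). Of the 6 phosphotransfer proteins 0 passed, with a median of -0.05 and changes from -0.33 for AHP5 (SE 0.14) to 0.22 for AHP4 (SE 0.13). Of the 8 type-B regulators measured among 11 listed 0 passed, with a median of -0.08 and changes from -0.25 for ARR14 (SE 0.11) to 0.20 for ARR10 (SE 0.12). In limma without the block, 0 of the 3 receptors, 1 of the phosphotransfer proteins (AHP5) and 1 of the type-B regulators (ARR14) had an unadjusted p under 0.05, against 18% of all probe sets in either direction. All AN3-GR arrays lay below all wild type arrays for 4 of the 8 type-B regulators, against 9.4% of all probe sets. These were ARR11, ARR12, ARR14 and ARR19, with ARR11 and ARR19 under the lower quartile in both genotypes. The same held for 1 of the 6 phosphotransfer proteins (AHP2) and 0 of the 3 receptors. ARR22, a type-C regulator, had a change of 0.02 at a level under the lower quartile in both genotypes.

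Genes of hormone supply and removal did not pass in limma without the block, where 2 of the 18 genes of synthesis and 2 of the 8 of breakdown had an unadjusted p under 0.05, again against 18% of all probe sets. Of 18 genes of cytokinin synthesis and activation 14 were negative with a median of -0.09, from LOG1, which releases the active hormone, at -0.27 (SE 0.10) to the tRNA isopentenyltransferase IPT2 at 0.35 (SE 0.15). Of these 18, 8 lay under the lower quartile in both genotypes. Negative changes made up 54.2% over all probe sets and 73.1% in the weakest class, where the median was -0.07. Of the 8 measured genes of breakdown and conjugation, 1 fell with the replicate block, where 3.03% of all probe sets did. That gene, UGT76C2, which inactivates cytokinin by adding glucose, had log2 values of 6.63, 6.69 and 7.00 in AN3-GR leaves, against 7.22, 7.08 and 7.49 in wild type leaves. Its groups did not overlap, and its change of -0.49 (SE 0.14) had an adjusted p of 0.123 in limma and 0.0268 with the block. CKX1, a cytokinin oxidase under the lower quartile in both genotypes, had the highest change of that list at 0.28 (SE 0.09; limma adjusted p = 0.166).

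Other genes known to be induced by cytokinin did not share one direction. Of 10 such genes, recalled from the field and fixed as a list, 5 were negative and 5 positive with a median of 0.001, and this list has genes in common with the others. In it, 1 fell with the block (UGT76C2) and 1 rose in both fits, the cytokinin response factor CRF2. CRF2 had log2 values of 8.71, 8.66 and 8.71 in AN3-GR leaves, against 8.18, 8.22 and 8.05 in wild type leaves. Its change was 0.54 (SE 0.09; limma adjusted p = 0.0414, and 0.0244 with the block), where 0.56% of all probe sets passed as higher without the block and 3.59% with it. Without the block the CRF2 call held when wild type replicate 3 was left out (adjusted p = 0.0368) and ended when any other single array was (0.0809 to 0.232). With the block, the calls of CRF2 and UGT76C2 ended without both arrays of replicate 2 (adjusted p = 0.156 each).

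The cytokinin response factors, AP2-type transcription factors that act beside the type-B regulators, thus stood on the other side of 0 from the type-A regulators. The changes of the 5 that were measured were all positive (median 0.41), and 4 of them had all AN3-GR arrays above all wild type arrays, against 12.8% of all probe sets. CRF2 was the 1 that passed. CRF1 at 0.31 (SE 0.11), CRF3 at 0.28 (SE 0.26), CRF5 at 0.41 (SE 0.12) and CRF6 at 0.41 (SE 0.18) did not pass in either fit. Whether the lists differ from each other was not tested.

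**Figure D4:**
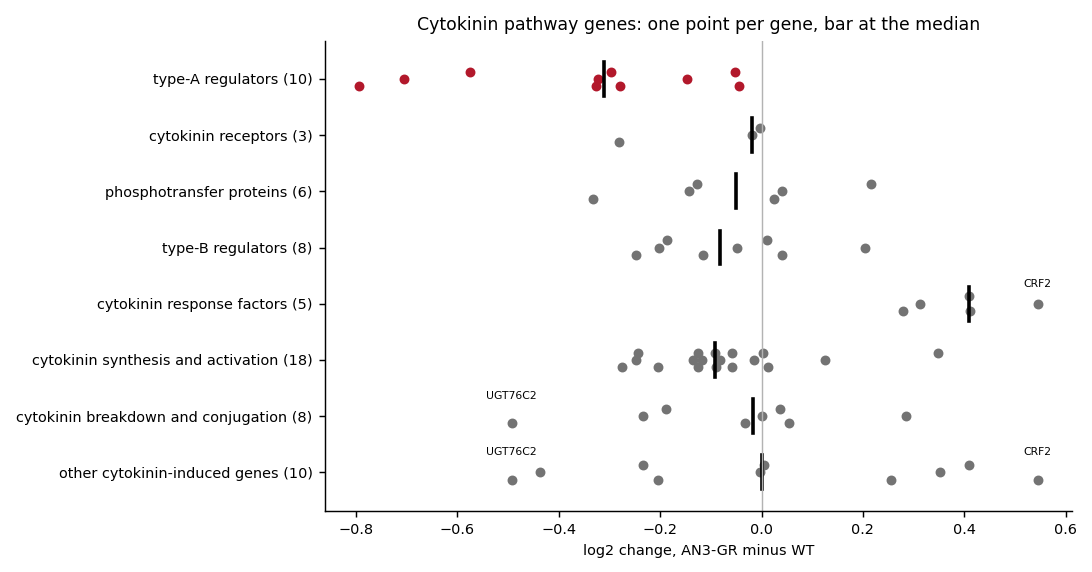
Log2 change, AN3-GR minus wild type, of each measured gene (point) in lists of the cytokinin pathway, with the median as a black bar, the number measured in brackets and names at genes past the threshold in either fit. The 10 type-A regulators (red) all lie below 0 with a median of -0.31, and the 5 cytokinin response factors all lie above 0 with a median of 0.41. ARR8 and ARR17 lie close to 0, at -0.05.

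Genes outside the family with the most similar profile over the 6 arrays were found by Pearson's r with the mean of the 10 scaled members. The 5 highest were AT4G27290 (r = 0.999), AT1G33475 (0.994), RbcX2, a chaperone of Rubisco assembly (0.993), AT5G43740 (0.993) and NF-YB2, a subunit of the NF-Y transcription factor (0.993). NF-YB2 had log2 values of 7.43, 7.39 and 7.41 in AN3-GR leaves, against 7.94, 8.00 and 8.09 in wild type leaves. It fell by 0.60 on the log2 scale (SE 0.09; limma adjusted p = 0.0328). AT5G43740 fell by 0.53 (SE 0.09; limma adjusted p = 0.0421), and the other 3 did not pass without the block. RbcX2 passed with it, at a change of -0.39 (SE 0.09 without the block; limma adjusted p = 0.0771 without it and 0.0355 with it), and AT4G27290 and AT1G33475 passed in neither fit. The calls of NF-YB2 and AT5G43740 held without wild type replicate 3 and ended when each of the other arrays was left out (adjusted p from 0.0617 to 0.200 for NF-YB2 and from 0.0717 to 0.232 for AT5G43740). These values of r describe 6 arrays in 2 genotypes and are no sign of shared function or control. The mean profile itself separated the genotypes, so genes picked for a high r with it were bound to be lower in AN3-GR. Their falls and calls are thus no separate result. Of the members themselves, ARR16 (0.902), ARR6 (0.900), ARR5 (0.871) and ARR4 (0.869) were closest to the mean profile, of which each is a part, and ARR17 (0.177) was farthest.

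AN3 itself had log2 values of 10.56, 10.02 and 10.55 in AN3-GR leaves, against 7.39, 6.98 and 7.61 in wild type leaves, a change of 3.05 (SE 0.19; limma adjusted p = 0.000303), with each AN3-GR array above each wild type array, transcripts of the fusion and of the native gene being measured together. Array medians lay between 6.22 and 6.32, and in all 0.789% of probe sets passed without the block and 6.63% with it. Leaf markers were present, with 7 of 10 measured, none of them under the lower quartile in both genotypes, and array means of 9.19 to 9.25 in AN3-GR and 9.11 to 9.26 in wild type. Of 9 shoot meristem and boundary markers 6 lay under the lower quartile in both genotypes, among them WUS, which represses ARR7 and ARR15 in the meristem, and array means were 4.015 to 4.169 in AN3-GR and 4.033 to 4.196 in wild type. The changes of all 9 were below 0 (median -0.05), and 0 of them passed in either fit. In the weakest class of all probe sets 73.1% of the changes were negative, with a median of -0.07. The 8 stomatal lineage markers had array means of 7.53 to 7.65 in AN3-GR and 7.62 to 7.67 in wild type, with 0 past the threshold in either fit. Of these 8, 7 had negative changes (median -0.07), and MUTE at -0.24 and BASL at -0.14 did not overlap between the genotypes, against 9.4% of all probe sets lower without overlap. The 10 vascular markers measured had array means of 6.29 to 6.37 in AN3-GR and 6.20 to 6.34 in wild type. Of these 5 were negative and 1 rose with the block, LHW, a transcription factor of vascular development, at 0.46 (SE 0.13; limma adjusted p = 0.128, and 0.0293 with the block), a call that ended without both arrays of replicate 2 (0.159). The 6 root markers measured had array means of 5.25 to 5.42 in AN3-GR and 5.36 to 5.42 in wild type. Of these, 2 (PLT1 and RHD6) lay under the lower quartile in both genotypes, while PYK10 stood at 10.57 in AN3-GR and 10.52 in wild type. Without overlap, AS2 of the leaf list (0.12) and APL (0.28) and LHW of the vascular list were higher in AN3-GR, against 12.8% of all probe sets. RHD6 (-0.15) was lower without overlap, and of the meristem and boundary markers 0 were. The part of these cell types in the type-A values was not tested, and fewer cells that express a gene and less RNA per cell cannot be told apart in whole leaves.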

How the data were processed

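Total RNA of dissected leaves 1 and 2 was hybridised to 6 ATH1 arrays, 3 per genotype, which the labels call biological repeats. The authors deposited log2 values made with RMA, which the submitters' processing notes list beside limma. The build and the version of the probe grouping are not given in the sources used here. RMA evens out the distribution of signals between arrays, so that a shift common to all genes is lost, and it compresses differences between weak signals. The values were used as deposited, with 0 columns left unused. The comparison used limma 3.58.1 in R 4.3.3 (lmFit, eBayes, two-sided) over all 21428 probe sets, with Benjamini-Hochberg adjustment over all of them and a threshold of 0.05. The fit without the block was tested on simulated data with independent noise on each array. The fit with the block was not tested in this way. Symbols came from the RefSeq gene table of TAIR10.1, which matched 21231 loci and left 197 unmatched. The number of arrays limits the precision, and p-values measure the spread between these repeats.

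To check whether replicate numbers pair the arrays, group means were subtracted and same-numbered arrays of the genotypes were correlated over all probe sets. The correlations were 0.161, 0.416 and 0.494 for replicates 1, 2 and 3. Each exceeded 0.1, so the numbers were taken to pair the arrays, although no label says what they share. Correlations between arrays of different numbers were not set beside them, so the check cannot establish the pairing. The fit with the block is given where it changes a call.

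All 10 members were named, with members of 8 other pathway lists past the threshold in either fit and otherwise the lowest and highest of each list, and the 5 probe sets of most similar profile. Other genes named were AN3, the remaining cytokinin response factors, some markers (1 of them past the threshold with the block) and upstream genes without overlap between the genotypes. These markers, factors and upstream genes were picked with their values in view. The members and lists were chosen with earlier results of these data known, so no test over a list was made. Other settings were another quantile normalization, centring on array medians, leaving out the weakest 25% or 50% of probe sets, array weights, a robust prior variance with an intensity trend, the block, and leaving out arrays singly or by replicate number.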

Additional observations from a re-analysis of the deposited data

How the results depend on the processing

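The median change of the 10 type-A regulators stayed negative in every alternative, from -0.24 without wild type replicate 3 to -0.37 without wild type replicate 2 (leaving out 1 array at a time), and the count of negative changes was 8 to 10 in those fits. After removal of the weakest 50% of probe sets 5 members remained in the fit, all 5 negative. The number of regulators called lower was 0 as reported, and 0 after quantile normalization or centring on medians, each without the block. It was 3 with the replicate block, 2 with array weights, and 1 with the intensity trend, with the weakest 25% or 50% of probe sets left out (ARR4 in each of these 3), or without wild type replicate 3 (0 to 1 over single arrays left out). In fits added after the data were seen it was 4 with the block and without both arrays of replicate 1, 4 without those of replicate 3, 0 without those of replicate 2, and 2 with quantile normalization and the block, where ARR6 was lost (adjusted p = 0.0646). ARR4 passed in 9 of 20 alternatives, with adjusted p-values from limma between 0.0194 and 0.463. ARR5 and ARR6 passed in 4 of 19 each, with 0.00417 to 0.489 and 0.00161 to 0.318. Signs turned for ARR8 (0.0064 after quantile normalization, with or without the block; 0.0066 without wild type replicate 2; 0.0389 without both arrays of replicate 2, with or without the block) and for ARR17 (0.0083 without wild type replicate 2). With single arrays or one replicate number left out, ARR8 ranged from -0.17 to 0.04 and ARR17 from -0.10 to 0.01. No other member changed sign.

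Over all probe sets the count of 169 became 564 with the weakest 50% left out, 558 with the trend, 1132 with array weights and 1420 with the replicate block. It was 9 to 779 with single arrays left out, 10, 21 and 22 without AN3-GR replicates 1, 2 and 3, and 12, 9 and 779 without wild type replicates 1, 2 and 3. It was 4, 6 and 74 without both arrays of replicate 1, 2 or 3, and 1187, 6 and 1456 with the block in these fits. With quantile normalization and the block it was 1699. The share of higher calls was 71.0% as reported, 49.6% after centring on medians, 58.1% after quantile normalization and 54.2% with the block. The cause of these differences was not tested, and the fits that leave out probe sets or arrays also hold fewer of them. ARR3 and ARR17, under the lower quartile, are limited by signal over background.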
